A study of Mus musculus with 45 samples.

Results

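The data described here are ATACseq counts after 24 h of SOX2 depletion in mouse embryonic stem cells (mESCs), set against untreated cells. This comparison uses 4 of the 45 samples of the series, chosen by their labels, and 31 of the 45 have a column in the count table. All 4 libraries come from E14 cells of the genotype SOX2-FKBP, in which SOX2 carries an FKBP tag, and the agent dTAG-13 directs the tagged protein to the proteasome. There are 2 libraries of cells given 500 nM dTAG-13 for 24 h and 2 of cells labelled NT, which received DMSO. The paper's methods state that DMSO and dTAG-13 were added in parallel and give no length of exposure to DMSO. All cells grew without serum in LIF with a MEK and a GSK3 inhibitor, so these additions are shared by both groups. The knock-in cells are clonal, and the sources used here do not say whether a replicate is a separate culture or the independent clone that the methods mention, so p-values measure the spread between these libraries, which may be technical. The other 8 libraries of the time course (0.5, 1, 2 and 6 h) entered the fit to estimate that spread.

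SOX2 is a transcription factor with an HMG domain that bends DNA and can bind sites on nucleosomes. In mESCs it pairs with OCT4 (the product of Pou5f1) on composite sites in enhancers, and together with NANOG, ESRRB and the KLF factors it sustains the pluripotent state. In the early embryo the epiblast holds the pluripotent state, and the trophectoderm and the primitive endoderm do not. In ATACseq the Tn5 transposase cuts open DNA, so the fragments counted in a peak reflect how open it was. The measurement is of DNA and does not show whether the SOX2 protein was gone.

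The sequences that follow are taken from the mm10 reference around the summits of peaks on which the account turns. The first 4 are from distal peaks that were lost, the Nanog sequence is from a promoter peak that was lost, and the last 3 are from peaks that were gained. Capitals mark a SOX word (ACAAAG or ACAATG, on either strand) or the composite SOX-OCT word (TTGTNATGNAAA, either strand), which can overlap a SOX word. Each is shown on the plus strand, and the Nanog and Krt7 stretches are cut where an annotated start begins.
Clstn2 intron, chr9:97477138-97477287: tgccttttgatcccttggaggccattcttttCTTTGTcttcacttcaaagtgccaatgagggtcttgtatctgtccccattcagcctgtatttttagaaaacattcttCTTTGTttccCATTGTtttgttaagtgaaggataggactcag
Lefty1 upstream, chr1:180924807-180924956: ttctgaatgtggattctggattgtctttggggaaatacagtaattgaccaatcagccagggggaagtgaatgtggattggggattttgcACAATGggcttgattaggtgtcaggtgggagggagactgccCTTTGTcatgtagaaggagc
Pou5f1 upstream, chr17:35490475-35490624: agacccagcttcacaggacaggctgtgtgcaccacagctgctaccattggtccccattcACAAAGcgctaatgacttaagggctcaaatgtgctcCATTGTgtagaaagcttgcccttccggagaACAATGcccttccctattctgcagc
Klf2 upstream, chr8:72316259-72316408: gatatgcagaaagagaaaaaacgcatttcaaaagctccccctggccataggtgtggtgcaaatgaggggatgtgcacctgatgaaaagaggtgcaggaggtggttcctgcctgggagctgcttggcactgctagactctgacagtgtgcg
Nanog promoter, chr6:122707382-122707488: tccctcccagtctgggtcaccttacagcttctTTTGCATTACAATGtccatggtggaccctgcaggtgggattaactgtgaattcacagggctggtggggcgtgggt
Zfp362 intron, chr4:128793866-128794015: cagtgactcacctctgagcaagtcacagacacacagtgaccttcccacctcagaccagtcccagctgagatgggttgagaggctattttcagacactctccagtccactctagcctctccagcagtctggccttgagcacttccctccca
Krt7 promoter, chr15:101412312-101412387: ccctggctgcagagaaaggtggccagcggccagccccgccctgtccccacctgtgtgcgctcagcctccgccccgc
Stat3 intron, chr11:100912534-100912683: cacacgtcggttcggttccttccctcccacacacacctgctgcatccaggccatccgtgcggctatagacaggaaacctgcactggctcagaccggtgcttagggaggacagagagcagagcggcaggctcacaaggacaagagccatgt
The Clstn2 and Pou5f1 stretches hold 3 SOX words each, the Lefty1 stretch holds 2, and the Nanog stretch holds 1 composite word. No such word lies in the Klf2, Zfp362, Krt7 or Stat3 stretch, which says only that these letters are not in these windows.

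After 24 h of SOX2 depletion 22650 of 160432 tested peaks were lost (14.1%) and 14716 were gained (9.17%). A peak is called lost or gained when it was lower or higher than in NT cells at an adjusted p under 0.05 in edgeR's quasi-likelihood test. The losses were the deeper changes. Their median log2 fold change was -1.44, against 0.92 for the gains and 0.04 over all tested peaks. Of the lost peaks 6011 had a log2 fold change of at most -2, whereas 480 of the gained peaks rose by a log2 fold change of 2 or more. The median lost peak had 55.6 and 56.6 normalized counts in the NT libraries, and the median gained peak had 36.5 and 35.4. A normalized count is a count scaled to the mean effective depth of the 12 libraries. In 22610 of the lost peaks both 24 h libraries lay below both NT libraries, as in 28.8% of all tested peaks. The call uses the same values, so this separation largely follows from it. A fit that pairs libraries by replicate number (a replicate block) gave 26510 lost and 21853 gained peaks. The number of gained peaks was less stable than that of lost peaks: it was 6515 without NT replicate 1, 7669 without NT replicate 2, 8569 without 24 h replicate 1 and 5139 in DESeq2's Wald test.

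**Figure D1:**
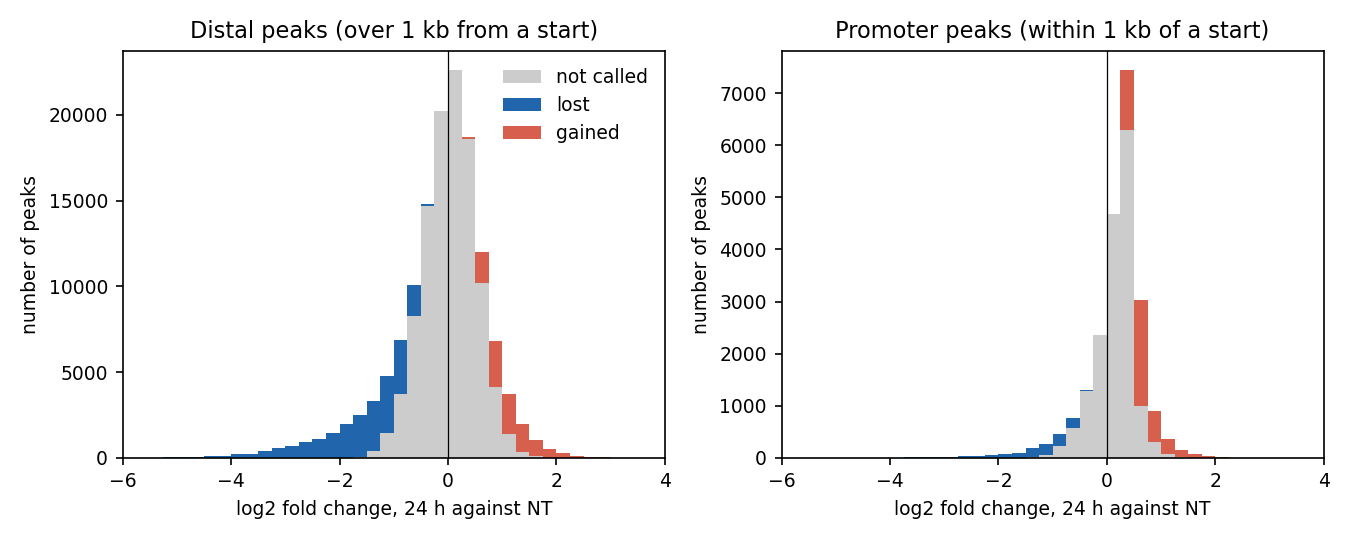
Number of tested peaks (y axis) in bins of log2 fold change between 24 h of SOX2 depletion and NT (x axis), for distal peaks on the left and promoter peaks on the right, with lost peaks in blue, gained peaks in red and uncalled peaks in grey. The distal peaks have a long tail of losses, while the median promoter peak lies at 0.28; a few peaks past -6 are outside the axis.

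The 4 libraries hold between 6479369 counts (NT replicate 2) and 10531404 counts (NT replicate 1), and the 24 h libraries hold 9496229 and 9624818. Replicates differed by more than sampling noise (chi-square per peak of 1.24 between the NT libraries and 1.86 between the 24 h libraries), so none was counted as a repeat of another. The start peaks of Sox2, Nanog, Zfp42, Tfcp2l1 and Esrrb were open in NT cells, and together held 1040 and 1150 normalized counts there against 924 and 1070 at 24 h. Starts of lineage genes were open in NT cells too. Some lay above the Esrrb start (83.4 and 102), such as Gata6 (151 and 173), and some below, such as Sox17 (48.6 and 45.3). An open start thus does not by itself mark the cell type. No peak summit lay within 500 bp of the annotated Pou5f1 start. Of 6 fibroblast markers 3 had a start peak, with summed levels of 159 and 167 in NT cells and 153 and 211 at 24 h, and the start peaks of Col1a1, Col3a1 and Postn were not among the tested peaks.

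Lost and gained peaks lay in different places. Promoter peaks, with a summit within 1 kb of any annotated start, made up 14.0% of tested, 5.17% of lost and 29.3% of gained peaks. Of the peaks at 0 to 500 bp from a protein-coding start 2.3% were lost and 24.8% gained, and of those over 100 kb from one 24.4% were lost and 5.69% gained. The median distance to a protein-coding start was 35.9 kb for lost, 12.9 kb for gained and 22.1 kb for tested peaks. The median GC content was 47.5% in lost, 52.8% in gained and 50% in tested peaks. Lost peaks more often lay between genes (48.2% of lost, 33.6% of gained) and had more repeat-masked bases around the summit (25.3% of lost, 9.56% of gained, 17.9% of tested).

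The gain at promoters depended on whether GC content was taken into account. With offsets fitted to GC content 12.9% of gained peaks were promoters, and 15.2% with a replicate block added, against 14.0% of tested peaks, and with the offsets alone 7.21% of promoter peaks were gained in place of 19.3%. The share of gained peaks at promoters was 19.9% with loess offsets and 19.1% without 24 h replicate 2. The libraries moved in the same direction: promoter peaks held 30.7% and 31.0% of the counts in the NT libraries, 36.1% and 38.5% at 24 h, 34.5% and 33.9% at 6 h and 31.8% and 32.1% at 2 h. The part of this shift in the promoter gains was not tested. The excess of losses far from starts held with GC offsets, where 22.0% of peaks over 100 kb from a start and 3.97% of those within 500 bp were lost.

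**Figure D2:**
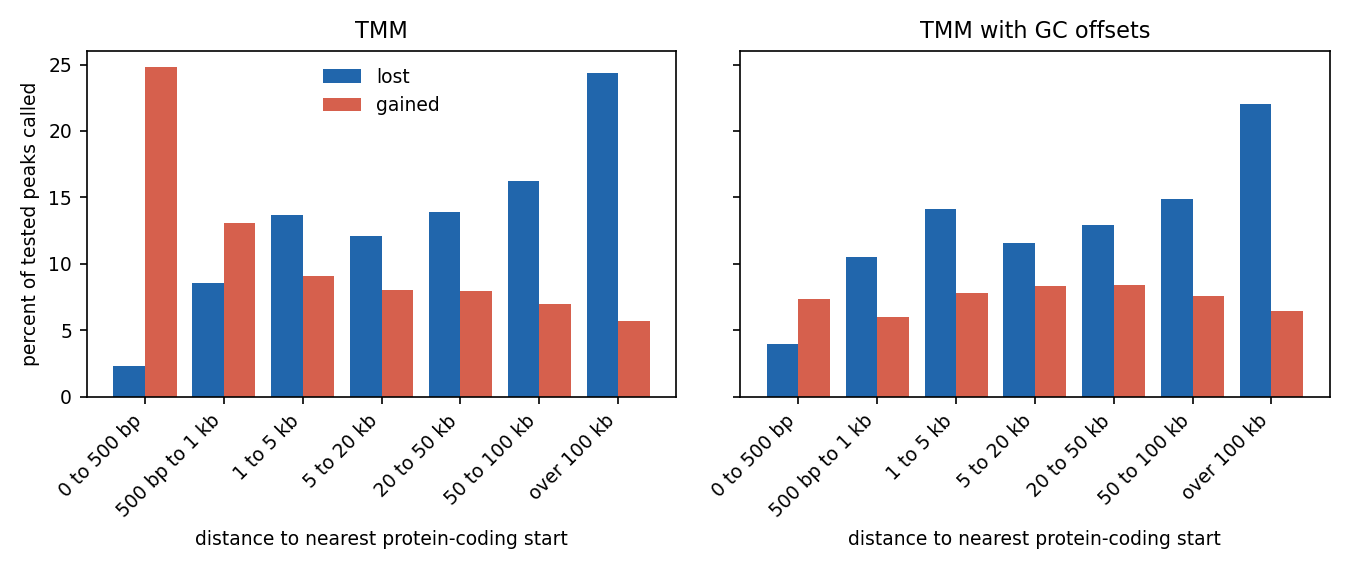
Percent of tested peaks called lost (blue) or gained (red) at 24 h (y axis) by distance from the nearest protein-coding start (x axis), with TMM scaling on the left and with added GC offsets on the right. Within 500 bp of a start the gained share is 24.8% on the left and 7.37% on the right, whereas the lost share over 100 kb away is 24.4% and 22.0%.

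The 5 largest losses were peaks with few fragments left at 24 h, and each lay at least 53.4 kb from a protein-coding start. The deepest, at chrX:88872976-88873939 between genes, had 88.6 and 102 normalized counts in NT cells and 0 and 0.944 at 24 h. In raw terms 174 fragments became 1, which is 0.513% of the NT level (95% exact interval of 0.0129% to 2.9%, for counting error only). The peaks at chr7:52911222-52911689, chr5:69488293-69490338 and chr4:16714861-16715332 likewise kept 1, 1 and 2 fragments of 120, 113 and 117, so that their fitted fold changes depend on the prior count and are not given. The fifth, at chr9:97476418-97477895 in an intron of Clstn2 (a synaptic cadherin), had 228 and 265 normalized counts in NT cells and 4.85 and 3.78 at 24 h. Its log2 fold change was -5.79 (approximate standard error, SE, of 0.31, edgeR adjusted p = 2.19e-15). These peaks were chosen among those where the 24 h and NT libraries did not overlap, so that separation is not a result.

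The 5 largest gains started from a low level. The peak at chr15:74347884-74348884, 168 kb upstream of Adgrb1 (a brain adhesion receptor), had 10.4 and 9.91 normalized counts in NT cells and 138 and 130 at 24 h, a log2 fold change of 3.70 (SE 0.27, edgeR adjusted p = 5e-13). A peak at chr4:128793602-128794486 in an intron of Zfp362 rose from 27.8 and 19.8 to 241 and 202, a log2 fold change of 3.16 (SE 0.23). The other 3 lay 62.2 kb downstream of the Pwwp2b start, 46.2 kb upstream of Tlr5 (a flagellin receptor) and in an intron of Rap1gap2. Their log2 fold changes were 3.46, 3.41 and 3.32. All 5 were chosen among peaks where the groups did not overlap. At the Rap1gap2 peak the 24 h libraries differed from each other, with 175 and 97.3 normalized counts.

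Each peak was assigned to the nearest protein-coding start of mm10, within 100 kb. This names a place and not a target. Of 18670 genes with a tested peak 4464 had only lost peaks, 4290 only gained peaks, 3468 both and 6448 neither. The counts within 100 kb were also summed for each gene into a locus value, which weighs a gene's distal peaks with its promoter. Offsets for GC content were fitted for peaks only, and their effect on the locus calls was not tested. Of 18737 loci 3723 were lower (19.9%) and 2296 higher (12.3%) at 24 h. The split depended on the scaling and on the pairing: total counts gave 3152 lower and 3431 higher loci (47.9% lower in place of 61.9%), and the fit with a replicate block gave 4643 and 3785. Leaving out NT replicate 1 left 917 higher loci, leaving out NT replicate 2 left 1058 and leaving out 24 h replicate 1 left 1464.

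Dpp6, a regulator of neuronal potassium channels, had the most lost peaks of any gene, with 22 of 40 lost and none gained. Its locus sum was 2423 and 2398 in the NT libraries and 974 and 970 at 24 h, a log2 fold change of -1.31 (SE 0.07). Epha2, an ephrin receptor, lost 14 of 20 peaks, and its locus fell by 1.41 on the log2 scale (SE 0.10). Sgk1, a serum-induced kinase, lost 16 of 42 and fell by 0.86 on the log2 scale. Etl4 (19 of 98), Myo10 (17 of 65), Tbl1xr1 (16 of 49), Auts2 (16 of 53), Tspan5 (16 of 53), Epha4 (15 of 36) and Bach2 (15 of 53) complete the first 10. All 10 loci were lower at an adjusted p under 0.05 in edgeR's test, against 19.9% of all loci. A locus sums the peaks by which its gene was ranked, so this largely follows from the choice.

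The genes with the most gained peaks changed less as loci. Dst, a cytoskeletal linker, gained 17 of 90 peaks, yet its locus sum was 5255 and 5069 in NT cells and 5765 and 5333 at 24 h (log2 fold change 0.10, adjusted p = 0.349 from edgeR's test). Fem1b, a ubiquitin ligase subunit, gained 12 of 22 peaks, and its locus rose by a log2 fold change of 0.73 (SE 0.09). The peaks nearest to Olfr412, an olfactory receptor gene, gained 11 of 20 and rose by 0.95 as a locus, but its locus within 20 kb had a log2 fold change of 0.05. Irf2bp2, Plcg2 and Cstad gained 12 peaks each, Atp2b4 gained 11, and Bend4, Mical3 and Fgfr1 gained 10. The loci of Cstad (adjusted p = 0.0544) and Atp2b4 (adjusted p = 0.794 from edgeR's test) were not called either.

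Among loci with at least 200 normalized counts, the deepest falls were at Olfr697, Tas2r130, Cyp4a31, Gm438 and Sult2a4, with log2 fold changes from -3.75 to -2.84. These sums rest on 1 to 5 peaks each, and several of the genes belong to multigene families. How well reads map at these peaks was not tested. The Sult2a4 call did not hold within 20 kb. Olfr697 had 241 and 262 normalized counts in NT cells and 12.9 and 23.8 at 24 h. The largest rises were at Hhatl, Atp1a4, Lrrfip1, Bsnd and Krt18, with log2 fold changes from 1.17 to 1.53, and at none of them was a peak lost.

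The naive pluripotency loci were lower throughout. Of the 369 peaks of this list 83 (22.5%) were lost and 9 (2.44%) gained, against 14.1% and 9.17% of all tested peaks. The median log2 fold change of its loci was -0.52, against 0.02 over all loci. All 12 loci were lower and none higher, against 19.9% and 12.3% of all loci. Leaving out any 1 of the 4 libraries left 11 lower, and assigning peaks to the nearest gene of any type left 9 lower and 1 higher. Klf2, a KLF factor of the naive network, had locus sums of 1661 and 1756 in NT cells and 859 and 761 at 24 h, a log2 fold change of -1.08 (SE 0.08, edgeR adjusted p = 1.75e-07). Prdm14, which represses the FGF pathway and DNA methylation, fell by 0.72 on the log2 scale and lost 12 of 39 peaks. Esrrb, a nuclear receptor, lost 12 and gained 4 of 60 peaks, and fell by 0.38. Dppa3 had no lost peak, and its locus fell by 0.43 on the log2 scale, a call lost without 24 h replicate 2 (-0.30).

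In the naive list 75 of 340 distal peaks and 2 of 12 start peaks were lost. Over all tested peaks 15.6% of distal peaks and 4.05% of those within 500 bp of a start were lost. The difference between the distal and the start peaks of the list was not tested. The lost starts were those of Prdm14 (log2 fold change -0.70) and Nr0b1 (-0.59). The peaks described next were taken for their smallest p, which sets them apart from a start peak. The peak 2.7 kb upstream of Klf2 had 232 and 246 normalized counts in NT cells and 34.9 and 24.6 at 24 h, a log2 fold change of -3.00 (SE 0.24, edgeR adjusted p = 4.24e-12). At the Klf2 start the levels were 297 and 317 in NT cells and 271 and 264 at 24 h, a log2 fold change of -0.20 (adjusted p = 0.427), which became -0.54 (adjusted p = 0.0141) with GC offsets. For Klf4 the peak 68.1 kb downstream fell from 352 and 370 to 77.6 and 66.1 (log2 fold change -2.32, SE 0.18). The Klf4 start had 295 and 314 in NT cells and 344 and 381 at 24 h, a log2 fold change of 0.25 (adjusted p = 0.252) that was -0.08 with GC offsets. The Klf4 locus as a whole was lower (-0.64, adjusted p = 8.73e-06), but its value was 0.00 within 20 kb and 0.34 (adjusted p = 0.0174) when peaks were given to the nearest gene of any type, so the call depends on how far peaks are assigned. Klf5 had a peak 55.8 kb downstream at a log2 fold change of -2.21 and a locus value of -0.60 that was -0.11 within 20 kb.

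**Figure D3:**
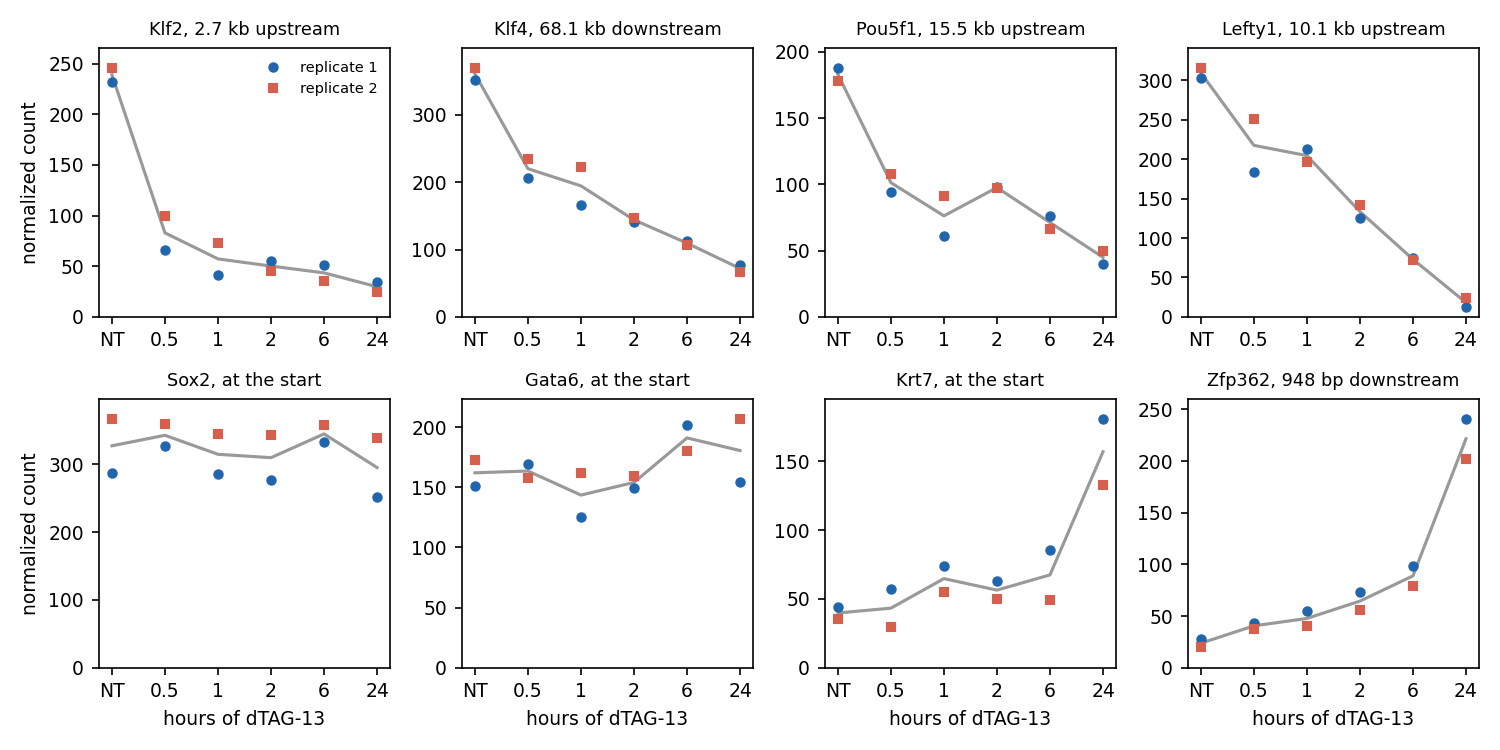
Normalized counts (y axis) of 8 peaks in the 12 libraries of the time course, by hours of dTAG-13 (x axis), with circles for replicate 1, squares for replicate 2 and a line through the means. The Klf2, Klf4, Pou5f1 and Lefty1 peaks are low at 24 h, the Sox2 and Gata6 starts stay within 252 to 367 and 125 to 207, and the Krt7 and Zfp362 peaks are highest at 24 h.

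In the general pluripotency list 32 of 153 distal peaks and 4 of 10 start peaks were lost. Over all tested peaks 15.6% of distal peaks and 4.05% of those within 500 bp of a start were lost. Of the 12 loci of this list 10 were lower and none higher (median log2 fold change -0.54), against 19.9% and 12.3% of all loci. The count was 6 without NT replicate 1, 7 without NT replicate 2 and 7 without 24 h replicate 2. Pou5f1, which encodes the partner OCT4, lost 5 of its 6 peaks, and its locus sums were 1361 and 1413 in NT cells and 688 and 624 at 24 h (log2 fold change -1.08, SE 0.08, adjusted p = 9.7e-08 from edgeR's test). The Pou5f1 peak with the smallest p lay 15.5 kb upstream and fell from 188 and 178 to 39.8 and 50. Fgf4, the autocrine FGF of mESCs and a known target of the composite site, fell by 0.99 as a locus. Its peak 3.25 kb downstream of the start fell from 172 and 195 to 51.4 and 43.4. Utf1, another such target, had a peak 1.94 kb downstream that fell from 293 and 258 to 77.6 and 85.9. Sall4, a zinc finger factor, had a peak 2.26 kb upstream that fell from 74.7 and 70.8 to 17.5 and 10.4. The call of its locus (-0.29) was lost without 24 h replicate 2 (-0.25) or NT replicate 1 (-0.23).

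Nanog, the homeodomain factor of the core network, was lower at its promoter. The peak at its start fell from 260 and 241 normalized counts to 143 and 155, a log2 fold change of -0.75 (SE 0.16, edgeR adjusted p = 0.000489). The Nanog locus was lower by 0.27 on the log2 scale (adjusted p = 0.0346), a call that was lost without NT replicate 1 (-0.21), NT replicate 2 (-0.32) or 24 h replicate 2 (-0.16).

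Sox2 itself did not pass the test as a locus. Its sums were 2357 and 2495 in NT cells and 2159 and 2090 at 24 h, a log2 fold change of -0.19 (adjusted p = 0.0561 from edgeR's test), whereas the fit with a replicate block gave an adjusted p of 0.0104 and the locus within 20 kb -0.33 (adjusted p = 0.0187). The Sox2 start had 287 and 367 in NT cells and 252 and 338 at 24 h (log2 fold change -0.13, adjusted p = 0.614), and -0.47 (adjusted p = 0.0274) with GC offsets. The Sox2 peak with the smallest p lay 94.7 kb upstream and was higher, from 70.3 and 63.7 to 128 and 100, a log2 fold change of 0.76 (adjusted p = 0.0108). That call was lost without NT replicate 1 (0.84), NT replicate 2 (0.70) or 24 h replicate 1 (0.54), and in DESeq2's Wald test. Dppa4 was the other locus not called (-0.06), and within 20 kb it was lower by 0.64 on the log2 scale.

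Formative epiblast genes are induced when naive cells move towards the primed state. Of 10 loci 4 were lower, 1 higher and 5 not called, against 19.9% lower and 12.3% higher over all loci. The median of -0.33 was -0.12 without 24 h replicate 1 and -0.59 without 24 h replicate 2. The replicate block gave 6 lower and 1 higher. Of their 119 peaks 27 (22.7%) were lost and 9 (7.56%) gained, against 14.1% and 9.17% of all tested peaks. Otx2, the homeodomain factor of the formative state, lost 7 of 27 peaks, and its locus fell by 0.73 on the log2 scale (SE 0.10, edgeR adjusted p = 4.62e-05). Its peak 80.5 kb upstream fell from 82.5 and 102 to 9.71 and 20.8. The Otx2 locus was not called under the nearest gene of any type (-0.45). Foxd3, a forkhead factor, lost 11 of 23 peaks and fell by 0.97. Fgf5 and Zic5 were lower by 0.68 and 0.61, though the Fgf5 call was lost without 24 h replicate 1 (-0.47) or NT replicate 2 (-0.47). Pou3f1, a POU factor named here after its value was seen, was the 1 higher locus, with sums of 422 and 402 in NT cells and 542 and 536 at 24 h (log2 fold change 0.38, SE 0.09).

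**Figure D4:**
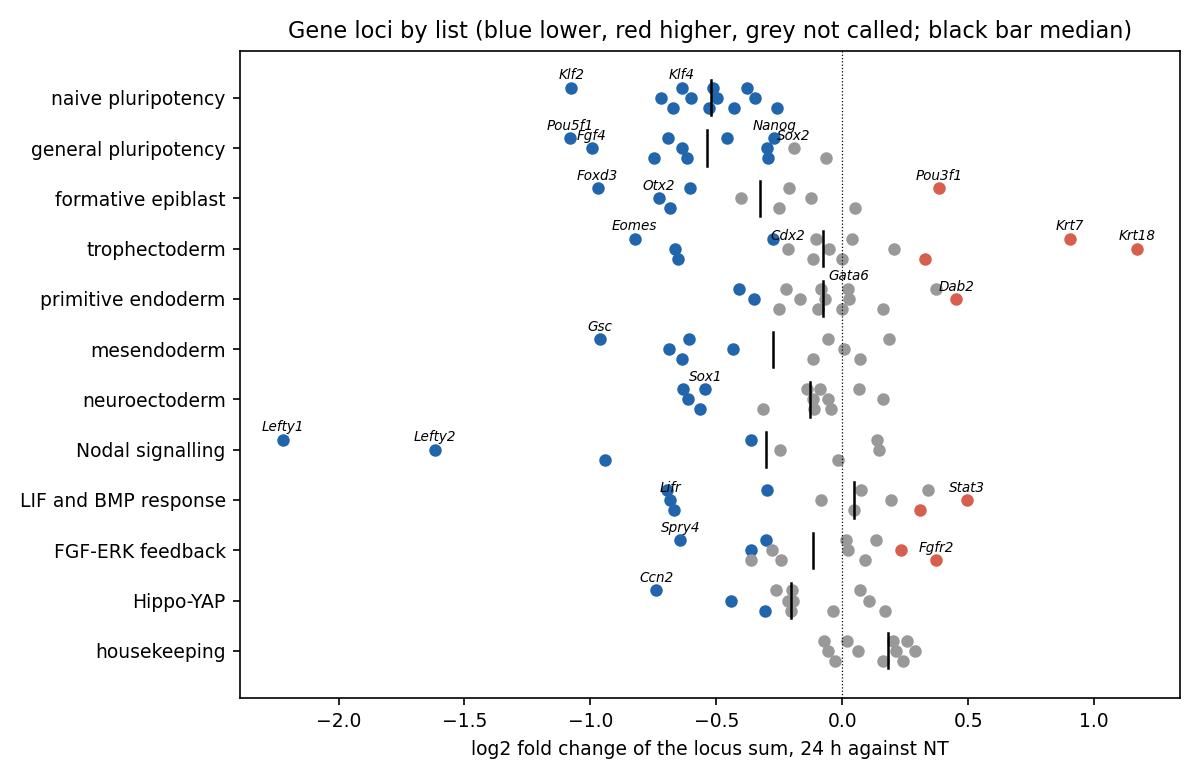
Log2 fold change of the locus sum between 24 h and NT (x axis) for the genes of the 12 lists (y axis, 2 loci not drawn), with lower loci in blue, higher loci in red, uncalled loci in grey and the median of each list as a black bar. All 12 naive pluripotency loci are lower (median -0.52), while the trophectoderm list has 4 lower and 3 higher loci and the housekeeping median lies at 0.18.

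Of 14 trophectoderm loci 4 were lower, 3 higher and 7 not called (median -0.08), against 19.9% lower and 12.3% higher over all loci. Of their peaks 17.3% were lost and 10.9% gained, near the 14.1% and 9.17% of all tested peaks. Eomes, a T-box factor of trophoblast and mesoderm, had a peak 71.9 kb upstream that fell from 304 and 286 to 12.6 and 12.3, a log2 fold change of -4.56 (SE 0.27, edgeR adjusted p = 8.32e-15). The Eomes locus fell by 0.82, but it was 0.04 when peaks went to the nearest gene of any type. The AP-2 factor loci Tfap2a and Tfap2c were also lower, by 0.66 and 0.65, and the Tfap2a start fell from 105 and 84.9 to 35.9 and 60.4, a call lost without 24 h replicate 1 (-0.70) or NT replicate 1 (-0.81). The fourth lower locus, Elf5 (-0.28, adjusted p = 0.046), was not called without any 1 of the 4 libraries (-0.35 to -0.20) or with total counts.

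The higher trophectoderm loci were the 3 simple-epithelium keratins, all on chromosome 15. Krt8 and Krt18 lie side by side, and nearest-start assignment divides their peaks, so these are not 3 independent places. Krt18 rose from 217 and 230 normalized counts to 523 and 479 as a locus, with 5 of 9 peaks gained (log2 fold change 1.17, SE 0.15, adjusted p = 1.76e-05 from edgeR's test). Krt7 rose from 115 and 143 to 271 and 206, a log2 fold change of 0.90, though it was 0.12 under the nearest gene of any type. The Krt7 start alone rose from 44.3 and 35.4 to 181 and 133, a log2 fold change of 1.95 (SE 0.25, adjusted p = 1.53e-07). Krt8 (0.33, adjusted p = 0.0498) was not called without NT replicate 1 (0.41), NT replicate 2 (0.26) or 24 h replicate 1 (0.19).

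The loci of Cdx2 and Gata3, factors that instruct trophectoderm, were not called. The Cdx2 locus had 490 and 479 in NT cells and 421 and 414 at 24 h, a log2 fold change of -0.22 with an adjusted p of 0.095 from edgeR's test, and 0.0387 with the replicate block. An intronic Cdx2 peak 2.35 kb from the start fell from 83.4 and 112 to 24.3 and 43.4 (log2 fold change -1.49). The Gata3 locus had 460 and 496 in NT cells and 487 and 466 at 24 h, with a log2 fold change of -0.00 (SE 0.09, adjusted p = 0.996).

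In the primitive endoderm list 13.8% of the peaks were lost and 11.9% gained, against 14.1% and 9.17% of all tested peaks. Of its 14 loci 2 were lower, 1 higher and 11 not called, against 19.9% lower and 12.3% higher over all loci. The replicate block gave 3 lower and 2 higher, and no locus was lower without 24 h replicate 1 or NT replicate 2 and 1 without NT replicate 1. Gata6, the factor that opposes NANOG in the inner cell mass, had locus sums of 594 and 590 in NT cells and 617 and 588 at 24 h (log2 fold change 0.02, SE 0.09, adjusted p = 0.853 from edgeR's test). The peak at its start had 151 and 173 in NT cells and 154 and 207 at 24 h, so the groups overlapped. Sox17 was at -0.17 as a locus (adjusted p = 0.388), and its peak 24.5 kb downstream was lower, from 79.9 and 69.4 to 45.6 and 45.3 (log2 fold change -0.73, adjusted p = 0.0211), a call lost without NT replicate 1 (-0.61), 24 h replicate 1 (-0.76) or 24 h replicate 2 (-0.74) and in DESeq2's Wald test. Dab2, an endocytic adaptor, rose by a log2 fold change of 0.45 with 4 of 11 peaks gained. Sox7 (-0.41) was not called without 24 h replicate 1 (-0.39) or NT replicate 2 (-0.35). Foxa2 (-0.35) was not called without 24 h replicate 1 (-0.25), NT replicate 1 (-0.46) or NT replicate 2 (-0.24).

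Lists of later lineages had lower loci and no higher one, against 12.3% higher over all loci. In the mesendoderm list 5 of 10 loci were lower, against 19.9% of all loci, namely Gsc, Evx1, Wnt3, Kdr and Fgf8. Of its 106 peaks 26 (24.5%) were lost and 3 (2.83%) gained, against 14.1% and 9.17% of all tested peaks. Gsc, the homeobox gene of the organizer, lost 10 of 23 peaks and fell by 0.96 as a locus (SE 0.08). Its peak 24.1 kb downstream fell from 99.9 and 77.9 to 7.76 and 7.55. In the neuroectoderm list 4 of 14 loci were lower, against 19.9% of all loci, namely Sox1, Pax6, Nes and Nkx2-2, with log2 fold changes from -0.63 to -0.54. There were 6 with the replicate block and 6 without 24 h replicate 2, where the median of -0.13 was -0.51. The calls of Kdr (-0.34) and Sox1 (-0.31) were lost within 20 kb and that of Nkx2-2 without 24 h replicate 1 (-0.44) or NT replicate 2 (-0.53). The call of Fgf8 (-0.43) was lost without 24 h replicate 1 (-0.38) or NT replicate 2 (-0.36). An intronic Pax6 peak, 1.65 kb from the start, fell from 157 and 167 to 58.2 and 31.2.

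The deepest falls among the 141 genes of the lists were Lefty1 and Lefty2. Lefty1, a secreted inhibitor of Nodal, had locus sums of 667 and 757 in NT cells and 166 and 138 at 24 h, a log2 fold change of -2.22 (SE 0.13, edgeR adjusted p = 1.85e-08). Its peak 10.1 kb upstream fell from 303 and 316 to 12.6 and 23.6, a log2 fold change of -4.08. The Lefty1 start fell from 215 and 251 to 57.3 and 47.2. Lefty2, the paralogous inhibitor, fell by 1.62 as a locus, and its peak 4.27 kb upstream went from 806 and 878 to 237 and 202. Of the 8 loci of the list 4 were lower and none higher, against 19.9% and 12.3% of all loci. The others lower were Cfc1, a co-receptor of Nodal (-0.94), and Smad7, an intracellular inhibitor (-0.36), whose call was lost without NT replicate 1 (-0.34), NT replicate 2 (-0.38) or 24 h replicate 2 (-0.20).

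Genes of the LIF and BMP pathways help to hold mESCs in the naive state. Of the peaks of this list 14.2% were lost, near the 14.1% of all tested peaks, and 16.3% were gained, against 9.17%. Of its 11 loci 4 were lower and 2 higher, against 19.9% and 12.3% of all loci. The replicate block gave 4 lower and 4 higher, and 1 was higher without NT replicate 2. Lifr and Il6st, the subunits of the LIF receptor, fell by 0.68 and 0.70 as loci, and a Lifr peak 14.0 kb upstream went from 406 and 358 to 85.4 and 66.1. At Il6st the peak 1.42 kb upstream fell from 190 and 252 to 29.1 and 40.6, while the start rose from 135 and 144 to 189 and 264 (log2 fold change 0.70, adjusted p = 0.00254 from edgeR's test). The rise of the Il6st start was 0.34 (adjusted p = 0.119) with GC offsets, and its call was also lost without 24 h replicate 2 (0.43) or NT replicate 1 (0.65). Stat3, which carries the LIF signal, rose as a locus by a log2 fold change of 0.49, a value of 0.32 within 20 kb (adjusted p = 0.0678). An intronic Stat3 peak 26.8 kb from the start rose from 14.8 and 8.49 to 71.8 and 75.5, a log2 fold change of 2.57 (SE 0.30). Id1, a BMP target, fell by 0.67. The ligand gene Bmp4 (-0.30) was called lower and its receptor gene Bmpr1a (0.31) higher. The Bmp4 call was lost without any 1 of the 4 libraries (-0.32 to -0.27), and the Bmpr1a call without 24 h replicate 2 (0.21) or NT replicate 2 (0.24).

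In the FGF-ERK list 3 of 12 loci were lower and 2 higher, shares near the 19.9% and 12.3% of all loci. The replicate block gave 6 and 2, leaving out 24 h replicate 2 gave 5 and 2, and leaving out 24 h replicate 1, NT replicate 1 or NT replicate 2 gave 2 and 1. The lower ones were the feedback genes Dusp6 (-0.36), Spry2 (-0.30) and Spry4 (-0.64), and the higher ones the receptors Fgfr1 (0.23) and Fgfr2 (0.37). Calls were lost for Dusp6 without 24 h replicate 1 (-0.26), for Spry2 without 24 h replicate 1 (-0.22), NT replicate 1 (-0.32) or NT replicate 2 (-0.29), and for Fgfr1 without 24 h replicate 1 (0.19), NT replicate 1 (0.21) or NT replicate 2 (0.26). Within 20 kb Spry2 was higher, at 0.31 (adjusted p = 0.0369 from edgeR's test), and Dusp6 and Fgfr2 were not called. In the Hippo-YAP list 12.6% of the peaks were lost, against 14.1% of all tested peaks, and 4.4% were gained, against 9.17%. Of its 12 loci 3 were lower, near the 19.9% of all loci, and none higher, against 12.3%. The replicate block gave 7 lower, and there was 1 without 24 h replicate 2 or NT replicate 1. Ccn2, a YAP target, was the lowest of them (-0.74, 8 of 18 peaks lost). The others, Ccn1 (-0.31) and Ankrd1 (-0.44), are YAP targets too. Ccn1 was not called without 24 h replicate 1 (-0.30), 24 h replicate 2 (-0.30) or NT replicate 1 (-0.26), nor Ankrd1 without 24 h replicate 2 (-0.33) or NT replicate 1 (-0.29). The 12 housekeeping loci had a median log2 fold change of 0.18, and 2 of their 66 peaks (3.03%) were lost and 9 (13.6%) gained.

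Most start peaks of the named genes did not pass the test, and neither did most of all tested start peaks. Of 42 start peaks of the genes chosen for naming 33 were not called, with log2 fold changes from -0.37 to 0.38. That range leaves out the called peaks. Over all tested peaks within 500 bp of a start, 4.05% were lost and 21.2% gained, with a median of 0.30. Of the 56 peaks with the smallest p at these genes 48 were lost and 6 gained, but these were taken for their p and their count is a description.

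The words in distal peaks differed between lost and gained. A SOX word lay within the 200 bp around the summit in 43.8% of lost distal peaks (95% Wilson interval of 43.2% to 44.5%), 26.4% of all tested distal peaks and 17.4% of gained ones. The composite word was in 0.894% of lost, 0.2% of tested and 0.0289% of gained distal peaks, the last being 3 of 10396. The KLF word (CCNCNCCC) was at 32.3%, 30.2% and 33.0% in lost, tested and gained peaks. The TFAP2 word (GCCNNNGGC) was at 6.53%, 7.6% and 10.9%. Both strands were searched, and letters matched in this way are a description and not a bound site. The GC content of lost peaks was lower, which also bears on how often each word occurs, and its part was not tested.

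**Figure D5:**
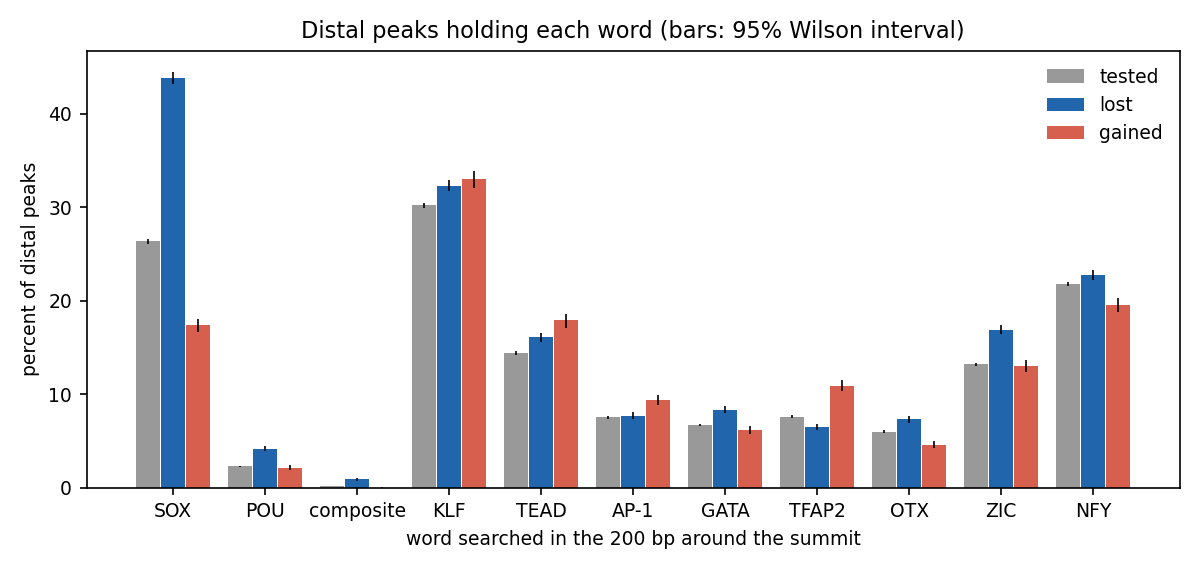
Percent of distal peaks (y axis) that hold each of 11 words in the 200 bp around the summit (x axis), for tested (grey), lost (blue) and gained (red) peaks, with bars for the 95% Wilson interval. The SOX word stands at 43.8% of lost, 26.4% of tested and 17.4% of gained peaks.

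Between 2 h and 24 h of SOX2 depletion, a comparison that does not use the NT libraries, 9607 peaks were lower (5.99%) and 8060 higher (5.02%) at 24 h. The fit with a replicate block gave 14901 lower and 14993 higher, and DESeq2's Wald test 4286 and 2573. With total counts there were 12155 lower and 5437 higher (69.1% of changed peaks lower in place of 54.4%). The counts were 5880 and 4040 without 2 h replicate 1, 4354 and 1940 without 2 h replicate 2, 6016 and 4940 without 24 h replicate 1 and 4480 and 3649 without 24 h replicate 2. The named peaks were chosen on 24 h against NT, and both comparisons share the 24 h libraries, so their values here are a description and not independent of that choice. The log2 difference between 24 h and 2 h was -2.87 at the Lefty1 upstream peak (SE 0.25) and -0.75 at the Klf2 upstream peak. It was 1.48 at the Krt7 start and 1.42 at the intronic Stat3 peak.

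The 24 h change was set against that in OCT4-FKBP cells given dTAG-13 for 24 h. These are V6.5 cells, so line and tagged factor cannot be told apart, and the named peaks were chosen for their change in SOX2-FKBP cells, which enters the difference. Over 166430 peaks the 24 h change was lower in SOX2-FKBP than in OCT4-FKBP cells at 2774 (1.67%) and higher at 1834 (1.1%). The fit with a replicate block gave 6374 and 5341. The lower count was 1614 without SOX2-FKBP 24 h replicate 1, 1583 without SOX2-FKBP 24 h replicate 2, 1386 without SOX2-FKBP NT replicate 1 and 1417 without OCT4-FKBP 24 h replicate 2. The higher count was 717 without SOX2-FKBP 24 h replicate 1, 758 without SOX2-FKBP NT replicate 1 and 944 without SOX2-FKBP NT replicate 2. Without OCT4-FKBP 24 h replicate 1, OCT4-FKBP 24 h replicate 2 or OCT4-FKBP NT replicate 2 it was 828, 1212 and 1075. Normalized counts of OCT4-FKBP cells were scaled to the mean effective depth of the 27 libraries of the interaction fit. Those of SOX2-FKBP cells keep the scale of the 12 libraries, so levels are not comparable between the lines. The Clstn2 intron peak, which fell in SOX2-FKBP cells, had 356 and 307 normalized counts in NT and 409 and 422 in treated OCT4-FKBP cells. The difference of the log2 fold changes was -6.08 (SE 0.40, edgeR adjusted p = 3.46e-13). The Pou5f1 upstream peak fell more after SOX2 depletion (difference -1.41, adjusted p = 0.01), and the Tfap2c peak 26.4 kb downstream fell less (difference 2.55, adjusted p = 0.00138). A peak 74.7 kb upstream of Gata6 had 73.8 and 59.5 in NT and 89.3 and 78.4 at 24 h in SOX2-FKBP cells, while in OCT4-FKBP cells it rose from 16.4 and 7.98 to 110 and 136 (difference -3.03, adjusted p = 2.84e-05).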

How the data were processed

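ATACseq libraries were sequenced in pairs, and the authors aligned reads to mm10 with bwa mem, kept a mapping quality of at least 10 and removed duplicates (BWA 0.7.17-r1188, SAMtools 1.10 and Picard 2.12.0 per the submitters' processing notes). The authors called peaks with MACS2 on pooled libraries and deposited raw counts of fragments per peak. The deposited peak list also holds a score, a fold enrichment ratio, and -log10 p and q values, of which only positions and summits were used here.

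From the counts, edgeR 4.0.16 in R 4.3.3 was run on the 12 SOX2-FKBP libraries with TMM. A peak was tested if its count passed 10 in more than 2 of them, and p-values were adjusted by Benjamini-Hochberg. Standard errors were taken as the log2 fold change over the root of F. The interaction used 27 libraries, of which more than 6 had to pass that count. Starts came from GENCODE vM21, and locus sums covered 100 kb. Same-numbered libraries deviated together (correlation of 0.121 to 0.339 over all 15 pairs of conditions, 0.161 for NT with 24 h), so the pairing comes from the data, and fits with a replicate block were run as an alternative. DESeq2 1.42.0 was another. In simulated counts 137 of 200 changed peaks, 194 of 200 changed loci and 43 of 200 changed interactions were recovered. Only features above a minimum mean count were changed, by fixed folds. For peaks these were 200 of 160432, far fewer than were called in the data, so recovery in the data can differ. Intervals cover counting error only.

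The members, gene lists and words were chosen with earlier results of these data known. Named peaks were the 5 largest losses and gains with at least 50 normalized counts and no overlap between the NT and 24 h libraries. For listed genes they were the smallest-p peak and the start peak. Named genes were the 10 with most lost and most gained peaks, the 5 largest changes of loci with at least 200 normalized counts each way, up to 4 genes per list by smallest p, and 12 genes named in any case. Results for some listed genes are not reported here.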

Additional observations from a re-analysis of the deposited data

Results flagged for a closer look

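At 21 peaks the 24 h change differed between SOX2-FKBP and OCT4-FKBP cells by the interaction test (adjusted p under 0.05 in edgeR's test). They come from the largest changes and from all listed genes, including Tfcp2l1, Tdgf1, Mesp1 and Lhx1, which were not chosen for naming. Of all 166430 peaks 1.67% had the lower and 1.1% the higher change in SOX2-FKBP cells. The values that follow are differences of log2 fold changes. Among the largest losses it was -6.16 at the peak nearest to Pet2, -5.67 at 1700015G11Rik, -3.39 at Yipf7, -3.48 at Ripk2 and -6.08 at the Clstn2 intron peak, whose nearest start is Trim42. Among the largest gains it was 2.56 at Adgrb1 and 3.48 at the Rap1gap2 intron peak, whose nearest start is Olfr412. Among peaks of pluripotency genes it was -1.41 at Pou5f1 and -2.20 at Sall4, and of the other sign at Tfcp2l1 (1.60) and Tdgf1 (1.61). Among peaks of lineage genes it was -1.50 at Eomes, -1.24 at Tfap2a, 2.55 at Tfap2c, -3.03 at Gata6, 1.76 at Pax6, 1.51 at Mesp1 and 2.09 at Lhx1. Among signalling genes it was -1.74 at Smad7, 2.56 at Stat3 and 1.85 at Tead1. The peaks were chosen for their change in SOX2-FKBP cells, which enters the difference. Since the lines are E14 and V6.5, the parental line and the tagged factor cannot be told apart, and at the 4 peaks with 1 or 2 fragments left the value depends on the prior count.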

How the results depend on the processing

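The number of lost peaks stayed within 15171 to 26510 under every alternative run. With the replicate block 21853 peaks were gained, and 18349 with GC offsets added to it. Gained peaks numbered 5139 in DESeq2's Wald test and 6515 to 9999 with 1 library left out. Lower loci numbered 7966 under the nearest gene of any type. Higher loci numbered 1293 in DESeq2's Wald test, 5032 under the nearest gene of any type, 3785 with the replicate block, 1466 within 20 kb and 917 to 1894 with 1 library left out. Between 24 h and 2 h, DESeq2's Wald test gave 4286 lower and 2573 higher peaks, the replicate block 14901 and 14993, and leaving out 1 library 4354 to 6016 and 1940 to 4940. For the difference from OCT4-FKBP cells, at least 10 counts in every library gave 614 lower and 1050 higher, DESeq2's Wald test 1039 higher, the replicate block 6374 and 5341, and leaving out 1 library 1386 to 2823 and 717 to 1662. With promoters set at 500 bp, 3.32% of lost and 26.7% of gained peaks were promoters. Over the whole peak in place of 200 bp, the SOX word was in 61.3% of tested, 79.8% of lost and 54.3% of gained distal peaks, the composite word in 0.511%, 1.75% and 0.135%, the KLF word in 58.6%, 65.7% and 63.4%, and the TFAP2 word in 21.8%, 22.8% and 28.3%. The replicate block moved the Sox2 locus (adjusted p = 0.0104) and the Cdx2 locus (adjusted p = 0.0387, edgeR) past the threshold and, without GC offsets, changed no other call, at 24 h against NT, of the loci and peaks given by name, but it raised the counts of lower loci in the formative (6), neuroectoderm (6), FGF-ERK (6), Hippo-YAP (7) and primitive endoderm (3) lists and of higher loci in the LIF and BMP (4) and primitive endoderm (2) lists. Log2 fold changes turned in sign for Dppa4 (-0.30 to 0.15 with 1 library left out, positive without 24 h replicate 2 and, at 0.11, NT replicate 1), Sox17 (-0.36 to 0.01, positive without 24 h replicate 1), the Sox2 start (-0.37 to 0.04, positive without 24 h replicate 1 or NT replicate 2), Gata6 (-0.16 within 20 kb, -0.01 without 24 h replicate 1, up to 0.07 without 24 h replicate 2) and Gata3 (0.11 under any gene type, 0.01 with no filter, 0.00 with only the groups compared, 0.06 with total counts, 0.05 without 24 h replicate 2 or NT replicate 2, down to -0.06 without NT replicate 1, and -0.01 for its smallest-p peak with loess offsets). They also turned for the Klf4 start (-0.08 with GC offsets, with or without the block), under the nearest gene of any type for Elf5 (0.20), Eomes (0.04), Klf4 (0.34) and Spry2 (0.05), and within 20 kb for Klf4 (0.00) and Spry2 (0.31). The causes were not tested. With 2 libraries a group, small changes can be missed. In simulated counts, where far fewer peaks changed than in the data, 95 of the 100 peaks with the larger simulated fold were recovered.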
